A study of Homo sapiens with 83 samples.

Results

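The positive arm of the molecular clock was followed through its 4 genes, ARNTL (also called BMAL1), ARNTL2 (BMAL2), CLOCK and NPAS2, which were selected by gene symbol from the 60237 genes of the expression table. All 4 were present with 1 entry each and were above 0 TPM in all 83 libraries. TPM is the reads assigned to a transcript divided by its length and scaled to the same total in every library, so levels of different genes can be set side by side on this scale. The question was how the level, the 24 h rhythm and the balance between paralogs of these genes stood in cells with active and inactive N-MYC.

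ARNTL and CLOCK are basic helix-loop-helix PAS proteins that pair with each other, bind E-box motifs in DNA and activate genes such as the PER and CRY genes and NR1D1. The PER and CRY proteins then repress the pair, and the REV-ERB receptors (NR1D1 and NR1D2) repress ARNTL transcription while the ROR receptors activate it, which closes the loop over about a day. ARNTL2 is the paralog of ARNTL and NPAS2 the paralog of CLOCK, and each can take the place of its relative in the heterodimer.

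Polyadenylated RNA had been sequenced from SHEP and SKNAS, human neuroblastoma cell lines that both constitutively express N-MYC-ER, a fusion protein that becomes active when 4-hydroxytamoxifen (4OHT) is added. MYC-ON cells received 4OHT for 24 h and MYC-OFF cells received the ethanol vehicle, after which all cells were given dexamethasone to align their clocks. Circadian time (CT) is the number of hours after dexamethasone, and RNA was taken every 4 h from CT24 to CT76. Each SHEP group held 28 libraries, as 14 CTs were sampled in 2 replicate series. The SKNAS groups held 1 series each, 14 libraries for MYC-OFF and 13 for MYC-ON, which lacked CT76. The CTs of a series come from 1 experiment, so the tests below measure the spread between CTs, with 2 runs of the experiment analysed in SHEP and 1 in SKNAS.

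The table holds no read counts, so the depth behind each value is unknown. The library median, taken over log2(TPM + 1) of the expressed genes, averaged 4.10 ± 0.049 (SD) in MYC-OFF and 4.04 ± 0.059 in MYC-ON for SHEP, but 3.92 ± 0.52 and 3.52 ± 0.48 for SKNAS. In SKNAS this library median was at least 3.8 in 10 of 14 MYC-OFF libraries and in 3 of 13 MYC-ON libraries, and SKNAS results are therefore given with and without the libraries below 3.8. MYCN had group means of 365 to 555 TPM, but in SKNAS it was at 29.1 to 179 TPM in the 4 MYC-OFF libraries below 3.8, against 516 to 987 TPM in the other 10. In SKNAS MYC-ON it was at 13.1 to 464 TPM in the 10 libraries below 3.8 and at 633 to 1046 TPM in the other 3, and its part in the results was not tested. The adrenergic neuroblastoma markers TH and DBH had group means below 1 TPM in both lines, and PHOX2A had a mean of 232 TPM in SKNAS MYC-OFF and 66.7 TPM in SKNAS MYC-ON but was at or near 0 in SHEP. Of 8 mesenchymal markers, 7 or 8 had a mean of at least 1 TPM in each group. Among markers of other cell types, the leukocyte gene PTPRC had a mean of 80.4 TPM in SKNAS MYC-OFF and 21.5 TPM in SKNAS MYC-ON, while CD3E and MS4A1, the other 2 of the 3 lymphoid markers, were at 0 in all SKNAS libraries. The sum of the 3 ranged from 13.03 to 132 TPM and from 3.13 to 59.7 TPM in these groups, was at most 0.111 TPM in SHEP, and its part in the results was not tested.

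The 4 genes lie on different chromosomes (GRCh38, Gencode 44). ARNTL (ENSG00000133794) spans chr11:13276652-13387266 on the plus strand, ARNTL2 (ENSG00000029153) chr12:27332836-27425289 on the plus strand, CLOCK (ENSG00000134852) chr4:55427903-55546909 on the minus strand and NPAS2 (ENSG00000170485) chr2:100820139-100996829 on the plus strand. ARNTL2 and NPAS2 each overlap an antisense gene. ARNTL2-AS1 had a mean of 0.0362 TPM in SHEP MYC-ON and was at 0 in every library of the other groups, and NPAS2-AS1 had means of 0.939 TPM in SKNAS MYC-OFF and 0.638 TPM in SKNAS MYC-ON. The sources used here do not say whether the libraries kept strand.

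The promoters are shown because the 2 ARNTL paralogs were followed as a pair and ARNTL has a known REV-ERB and ROR input. RefSeq promoter windows (GRCh38.p14, 250 bases before to 50 bases after a start) were found for all 4 genes, with 2 starts for ARNTL, 1 for ARNTL2, 2 for CLOCK and 1 for NPAS2. The E-box CACGTG, searched on both strands, was in none of these windows and in 7.26% of 35116 promoter windows of the same length. The 6 letters AGGTCA, the core that REV-ERB and ROR receptors recognise, were searched on both strands and occurred in 1 ARNTL window and in no window of the other members, against 13.8% of all windows. The 250 bases before the ARNTL start with that match (chr11:13277540-13277789, plus strand) and before the ARNTL2 start (chr12:27332586-27332835, plus strand) had GC contents of 72.8% and 58.0% and held 27 and 17 CG dinucleotides. The match itself is 32 bases past the ARNTL start and is shown in capitals within 30 bases (chr11:13277809-13277838, plus strand).
ARNTL upstream: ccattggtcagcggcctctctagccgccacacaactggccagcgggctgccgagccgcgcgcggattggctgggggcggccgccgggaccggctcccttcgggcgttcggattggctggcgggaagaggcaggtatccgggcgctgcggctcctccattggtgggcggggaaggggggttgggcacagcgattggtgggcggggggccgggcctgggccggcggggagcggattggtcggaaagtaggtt
ARNTL2 upstream: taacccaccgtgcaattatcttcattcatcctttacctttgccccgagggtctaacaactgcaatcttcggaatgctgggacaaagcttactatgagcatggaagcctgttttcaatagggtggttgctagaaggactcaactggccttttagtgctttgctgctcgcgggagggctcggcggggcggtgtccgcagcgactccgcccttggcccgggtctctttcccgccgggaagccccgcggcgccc
ARNTL AGGTCA match: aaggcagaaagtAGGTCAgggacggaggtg
A match is a string of letters and was not tested for binding.

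ARNTL fell in MYC-ON in both lines. In SHEP MYC-OFF the lowest, median and highest ARNTL levels were 9.86, 14.8 and 19.5 TPM, and in SHEP MYC-ON they were 1.5, 2.78 and 5.20 TPM. The ranges were separate, and MYC-ON was lower at 28 of 28 matched CTs. In bulk RNA, fewer cells that express a gene and less RNA per cell cannot be told apart. Group means were 14.6 ± 2.76 TPM (SD, n = 28) and 2.86 ± 0.907 TPM (n = 28), a ratio of 5.10. On the log2(TPM + 1) scale, on which all changes below are given and which understates changes at low TPM, ARNTL fell by 2.03 (SE 0.071, limma adjusted p = 6.21e-29). Calls required an adjusted p no larger than 0.05 together with a shift of 0.15 or more in either direction, and 71.9% of the 14362 genes tested in SHEP were called and 38.9% were called lower. The ranges of the conditions were separate for 12.5% of genes.

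In SKNAS MYC-OFF the lowest, median and highest ARNTL levels were 4.05, 11.4 and 23.4 TPM, and in SKNAS MYC-ON they were 0.242, 1.63 and 4.33 TPM. MYC-ON was lower at 13 of 13 matched CTs. The ranges met in 1 library, since MYC-ON at CT52 (4.33 TPM) stood above MYC-OFF at CT64 (4.05 TPM); ranges were separate for 4.41% of genes in this line. Group means were 11.8 ± 5.49 TPM (SD, n = 14) and 1.73 ± 1.03 TPM (n = 13), a ratio of 6.81, and the log2 change was -2.18 (SE 0.22, limma adjusted p = 1.57e-06). In SKNAS 48.1% of 13886 genes were called and 34.2% were called lower. With the library median as a covariate the ARNTL change was -1.66, and in libraries with a median of at least 3.8 it was -1.86; both stayed called. In those libraries the ranges were 10.1 to 23.4 TPM in MYC-OFF and 2.31 to 4.33 TPM in MYC-ON, without overlap.

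**Figure D1:**
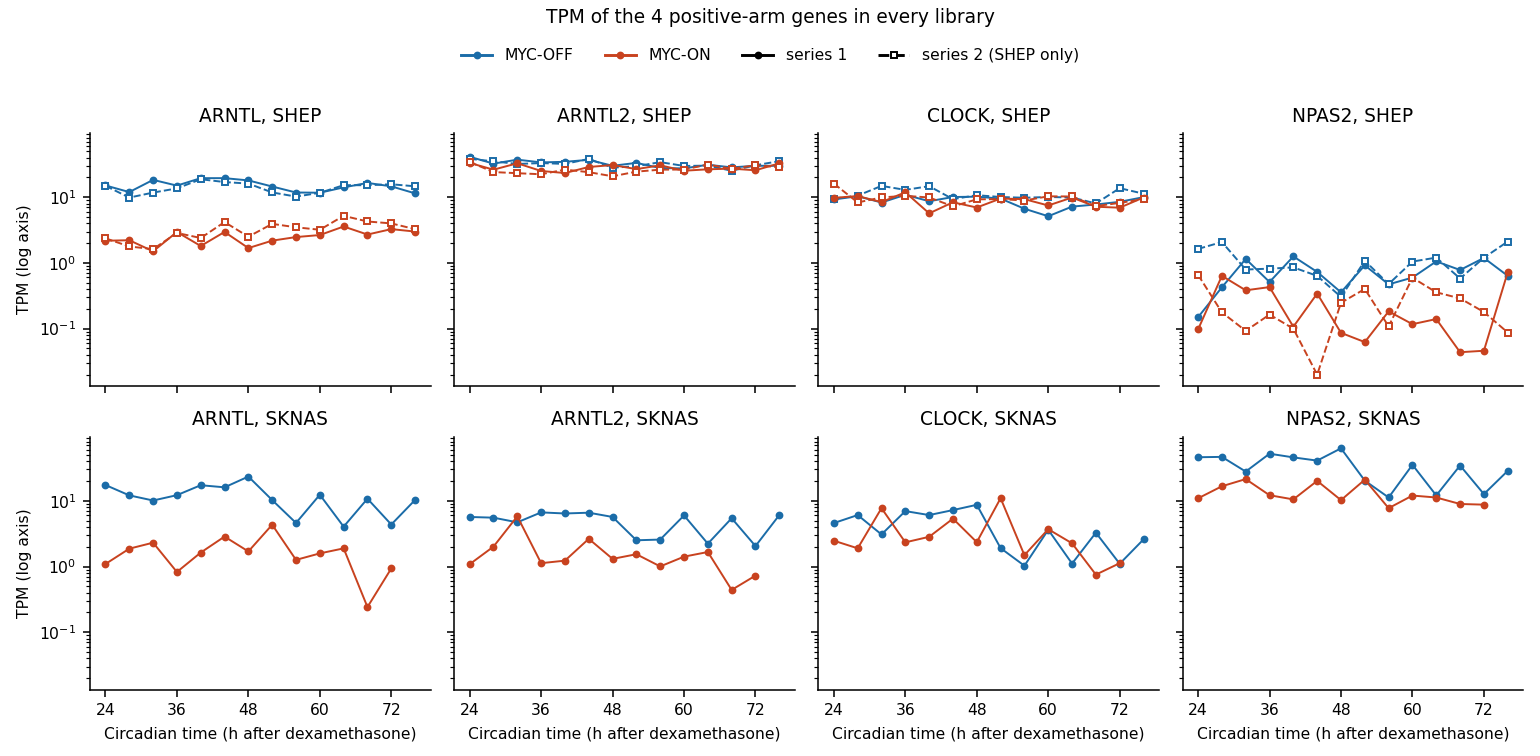
TPM (log axis) of ARNTL, ARNTL2, CLOCK and NPAS2 against circadian time in SHEP (upper row) and SKNAS (lower row), with MYC-OFF in blue and MYC-ON in red; each point is 1 library, filled for series 1 and open for the SHEP series 2. The ARNTL lines of the 2 conditions stay apart at all 14 CTs in SHEP, the CLOCK lines cross, and NPAS2 lies at or below 2.11 TPM in SHEP and at or above 7.74 TPM in SKNAS.

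ARNTL2, the paralog of ARNTL, fell in both lines and by unequal amounts. In SHEP its lowest, median and highest levels were 25.3, 32.1 and 41.3 TPM in MYC-OFF and 20.8, 26.5 and 34.3 TPM in MYC-ON. These ranges overlapped over most of their length, with 20 of 28 MYC-ON libraries above the lowest MYC-OFF library, although MYC-ON was lower at 23 of 28 matched CTs. Means were 32.4 ± 3.81 and 27.3 ± 3.58 TPM (SD, n = 28 each), a ratio of 1.19, and the log2 change was -0.24 (SE 0.041, limma adjusted p = 1.05e-06). In SKNAS the levels were 2.05, 5.61 and 6.67 TPM in MYC-OFF and 0.441, 1.31 and 5.82 TPM in MYC-ON, and MYC-ON was lower at 12 of 13 matched CTs. The exception was CT32, where MYC-ON had its highest value, and the ranges overlapped in 2 of 13 MYC-ON libraries. Means were 4.87 ± 1.74 TPM (SD, n = 14) and 1.69 ± 1.36 TPM (n = 13), a ratio of 2.88, and ARNTL2 fell by 1.14 on the log2 scale (SE 0.19, limma adjusted p = 0.000186). The change was -0.74 with the library median as a covariate and -0.80 in the high-median libraries (limma adjusted p = 0.00693). With each SHEP series averaged to 1 value per condition, ARNTL and ARNTL2 were still called (limma adjusted p = 0.000194 and 0.0355), as were 7627 of all 14362 genes tested.

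CLOCK, the partner of ARNTL and ARNTL2, was not called in either line. Its lowest, median and highest levels in SHEP were 5.13, 9.95 and 14.9 TPM in MYC-OFF and 5.68, 9.34 and 16.1 TPM in MYC-ON, and MYC-ON was lower at 17 of 28 matched CTs. The log2 difference was -0.10 (SE 0.072, limma adjusted p = 0.206), with a 95% interval of -0.24 to 0.04, and it was 0.12 with the library median as a covariate. In SKNAS the levels were 1.03, 3.45 and 8.70 TPM in MYC-OFF and 0.753, 2.35 and 10.97 TPM in MYC-ON, with nearly complete overlap. Here the difference was -0.25 (SE 0.28, limma adjusted p = 0.471), with a 95% interval of -0.79 to 0.29. Its sign turned with the handling of the library median, to 0.38 with the covariate (limma adjusted p = 0.0449) and 0.53 in the high-median libraries (limma adjusted p = 0.145), so no direction is given for CLOCK.

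NPAS2, the paralog of CLOCK, was a low transcript in SHEP and the most abundant member in SKNAS. In SHEP its lowest, median and highest levels were 0.149, 0.805 and 2.11 TPM in MYC-OFF and 0.0199, 0.170 and 0.720 TPM in MYC-ON. MYC-ON was lower at 26 of 28 matched CTs, with means of 0.894 ± 0.482 and 0.245 ± 0.205 TPM (SD, n = 28 each). Its mean over all SHEP libraries was under the minimum of 1 TPM, so it was outside the SHEP test; without that minimum the log2 change was -0.58 (limma adjusted p = 2.81e-08). In SKNAS the levels were 11.2, 34.9 and 62.98 TPM in MYC-OFF and 7.74, 11.2 and 21.4 TPM in MYC-ON. MYC-ON was lower at 12 of 13 matched CTs, although 6 of 13 MYC-ON libraries stood above the lowest MYC-OFF library. Means were 34.1 ± 16.1 TPM (SD, n = 14) and 13.2 ± 4.86 TPM (n = 13), a ratio of 2.58, and the log2 change was -1.20 (SE 0.22, limma adjusted p = 4.00e-04). It was -0.69 with the library median as a covariate and -0.97 in the high-median libraries, called in both.

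An interaction term (SKNAS minus SHEP, 83 libraries) tested whether the lines differed in these changes, and 51.6% of 15942 genes were called. The ARNTL changes did not differ by this test, at -0.15 (SE 0.17, limma adjusted p = 0.475, 95% interval -0.49 to 0.19). The ARNTL2 fall was larger in SKNAS by 0.90 on the log2 scale, an interaction of -0.90 (SE 0.13, limma adjusted p = 3.67e-08), and it was called at -0.58 with the library median as a covariate and -0.56 in the high-median libraries. NPAS2 had an interaction of -0.62 (limma adjusted p = 0.00361), which was not called with the covariate (-0.18), in the high-median libraries (-0.38) or without SHEP series 1 (-0.51, limma adjusted p = 0.106). It turned to 0.33 with a pseudocount of 0.1 in place of 1, as NPAS2 is under 1 TPM in most SHEP libraries. CLOCK was not called at -0.15 (limma adjusted p = 0.554), but was called with the opposite sign at 0.40 with the covariate (limma adjusted p = 0.0122) and at 0.63 in the high-median libraries (limma adjusted p = 0.0197).

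**Figure D2:**
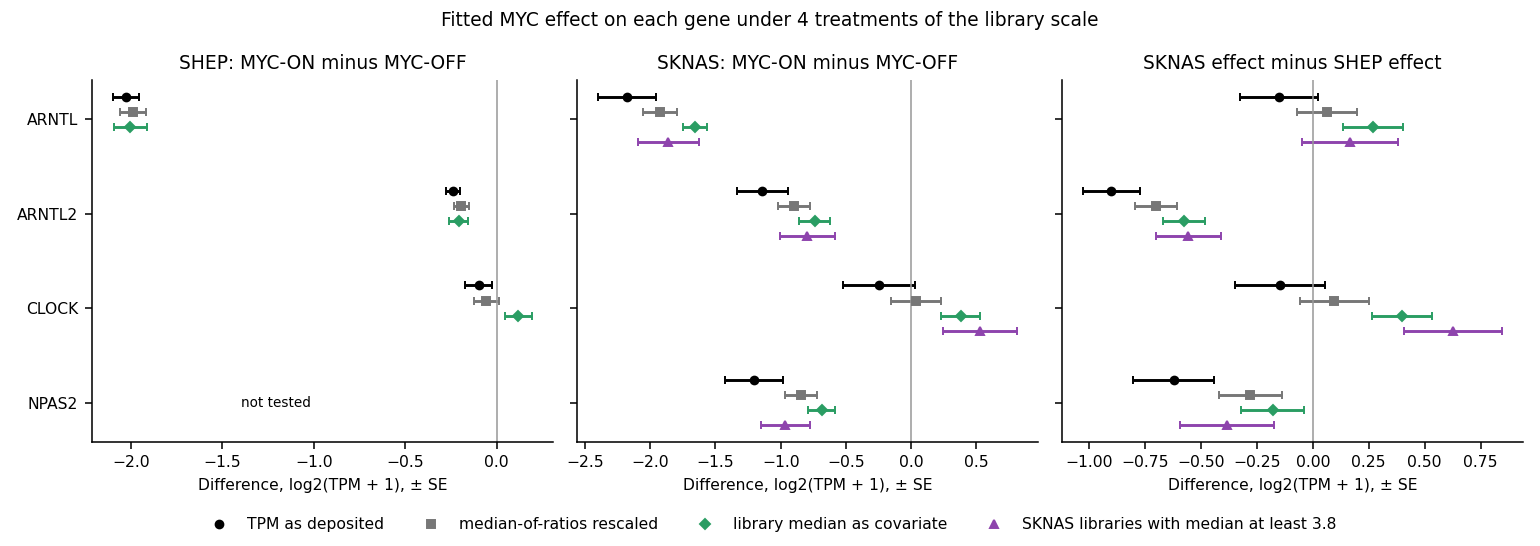
Change in log2(TPM + 1), MYC-ON minus MYC-OFF, of each gene in SHEP (left) and SKNAS (middle) and the SKNAS change minus the SHEP change (right), from TPM as deposited, rescaled TPM, a fit with the library median as covariate and the high-median SKNAS libraries, with error bars of 1 SE. ARNTL is near -2 in both lines, ARNTL2 is -0.24 in SHEP and -1.14 in SKNAS, and CLOCK lies on both sides of 0 in SKNAS.

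The lines differed most in which paralog carried the transcripts. ARNTL2 was 6.65 times higher in SHEP than in SKNAS in MYC-OFF and 16.1 times higher in MYC-ON, and NPAS2 was 38.2 times higher in SKNAS in MYC-OFF and 53.9 times higher in MYC-ON. The ranges of the lines were separate for both genes in both conditions, as they were for 30.7% of genes in MYC-OFF and 28% in MYC-ON. As log2 differences (SKNAS minus SHEP), ARNTL2 was at -2.57 in MYC-OFF and -3.49 in MYC-ON, and NPAS2 at 4.08 and 3.47 (limma adjusted p = 6.05e-22, 1.43e-22, 1.66e-19 and 1.67e-23). CLOCK was lower in SKNAS, with differences of -1.26 in MYC-OFF and -1.37 in MYC-ON (limma adjusted p = 5.41e-09 and 1.50e-09), but in MYC-ON the high-median libraries gave -0.16 (limma adjusted p = 0.403). ARNTL differed least and its ranges overlapped, at -0.40 for MYC-OFF and -0.54 for MYC-ON, and it was not called in the high-median libraries, at -0.10 and 0.19; the MYC-OFF difference was also not called without SHEP series 1 (-0.35, limma adjusted p = 0.0767). Most genes passed these tests, 79.1% in MYC-OFF and 84.6% in MYC-ON, and the lines differ in origin as well as in library median.

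In order of mean TPM, SHEP had ARNTL2, ARNTL, CLOCK and NPAS2 in MYC-OFF and ARNTL2, CLOCK, ARNTL and NPAS2 in MYC-ON. The neighbours ARNTL and CLOCK overlapped in their ranges in MYC-OFF (9.86 to 19.5 and 5.13 to 14.9 TPM), whereas in MYC-ON they were separate (1.5 to 5.20 and 5.68 to 16.1 TPM). SKNAS had NPAS2, ARNTL, ARNTL2 and CLOCK in MYC-OFF and NPAS2, CLOCK, ARNTL and ARNTL2 in MYC-ON. There, ARNTL2 and CLOCK in MYC-OFF, and ARNTL and ARNTL2 in MYC-ON, were closer in mean than their SDs, and the range of CLOCK in MYC-ON overlapped those of ARNTL and ARNTL2.

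The share of ARNTL in the ARNTL plus ARNTL2 transcripts fell in both lines. In SHEP it was 31.0 ± 4.23% (SD, range 21.9 to 37.6%) in MYC-OFF and 9.52 ± 2.81% (4.37 to 14.8%) in MYC-ON, without overlap, and ARNTL2 was the more abundant in all 56 libraries. In SKNAS it was 69.6 ± 5.72% (62.98 to 80.5%) in MYC-OFF and 50.9 ± 11.1% (28.4 to 73.8%) in MYC-ON. There ARNTL was the more abundant in 14 of 14 MYC-OFF libraries and in 9 of 13 MYC-ON libraries. Mean summed levels of both paralogs were 47.0 TPM (MYC-OFF) and 30.2 TPM (MYC-ON) in SHEP, and 16.7 and 3.43 TPM in SKNAS.

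The log2 ratio of ARNTL to ARNTL2 (each TPM + 1) changed between MYC-OFF and MYC-ON by -1.79 in SHEP (SD of the pairs 0.447, lower in 28 of 28 pairs, paired sign-flip permutation test, two-sided, adjusted p = 4e-05 over 4 ratios; 2e-05 unadjusted is the smallest this test can give). In SKNAS it changed by -1.04 (SD 0.450, lower in 13 of 13 pairs, exact permutation test, adjusted p = 0.000244, the smallest it can give). When each SHEP series counted as 1 value, the same change had an exact permutation p of 0.333, the smallest that 2 against 2 values allow. In the high-median SKNAS libraries the change was -1.07 (exact permutation p = 0.049 unadjusted, 10 against 3 libraries).

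CLOCK held most of the CLOCK plus NPAS2 transcripts in SHEP, 91.7 ± 4.01% (SD) in MYC-OFF and 97.6 ± 1.76% in MYC-ON, and the smaller part in SKNAS, 10.1 ± 2.06% and 18.6 ± 7.09%. NPAS2 was the more abundant of the pair in all 27 SKNAS libraries and in none of the 56 SHEP libraries. The log2 ratio of CLOCK to NPAS2 rose by 0.48 in SHEP (SD of the pairs 0.446, higher in 24 of 28 pairs, permutation test, adjusted p = 4e-05) and by 0.96 in SKNAS (SD 0.505, higher in 13 of 13 pairs, exact permutation test, adjusted p = 0.000244). The SHEP value depends on the pseudocount, since NPAS2 is low there, and was 1.48 with a pseudocount of 0.1. In the high-median SKNAS libraries the ratio rose by 1.502 (exact permutation p = 0.00699, unadjusted).

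**Figure D3:**
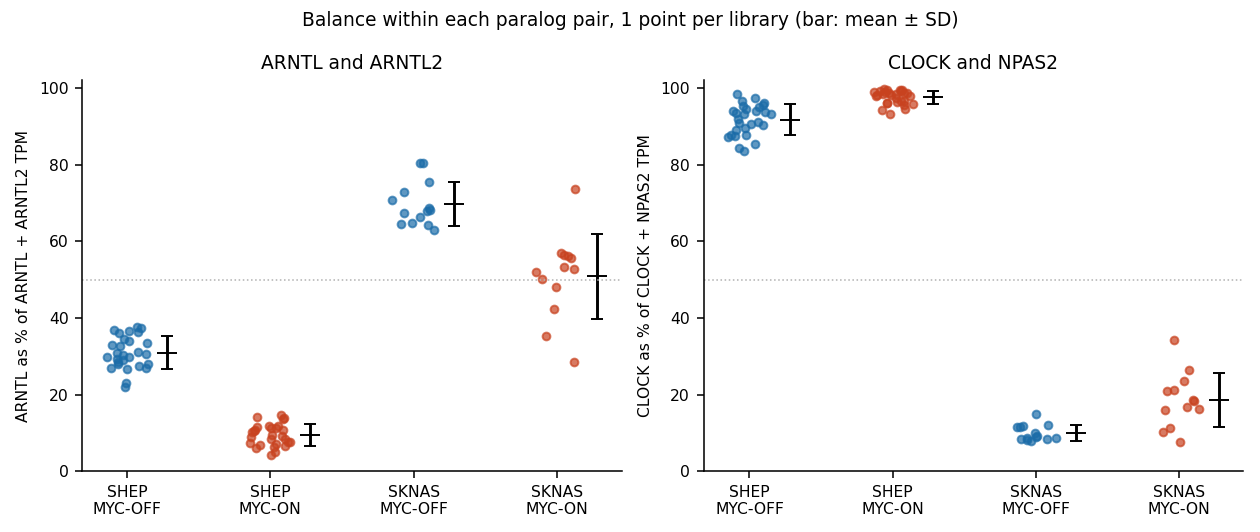
Percent of ARNTL in ARNTL plus ARNTL2 (left) and of CLOCK in CLOCK plus NPAS2 (right) for every library, by group, with the mean and 1 SD beside the points; the dotted line is at 50%. The ARNTL share is lower in MYC-ON in both lines, and the CLOCK share is at or above 83.6% in every SHEP library and at or below 34.3% in every SKNAS library.

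Within SKNAS the members moved with the library median. In MYC-OFF the 4 libraries below a median of 3.8 (CT52, CT56, CT64 and CT72) had ARNTL at 4.05 to 10.3 TPM, ARNTL2 at 2.05 to 2.58 TPM, CLOCK at 1.03 to 1.91 TPM and NPAS2 at 11.2 to 20.3 TPM. The other 10 libraries had ARNTL2 at 4.71 to 6.67 TPM, CLOCK at 2.59 to 8.70 TPM and NPAS2 at 27.9 to 62.98 TPM, above the low-median libraries in each case, with ARNTL overlapping slightly. In MYC-ON the 3 libraries at or above 3.8 (CT32, CT44 and CT52) had CLOCK at 5.36 to 10.97 TPM and NPAS2 at 20.1 to 21.4 TPM, again above the other 10, at 0.753 to 3.7 and 7.74 to 16.7 TPM. Low-median libraries were more frequent late in MYC-OFF and in MYC-ON, and in this line the library median and the condition cannot be fully told apart. Rescaling divided each library by the median ratio of its genes to their geometric means, over genes detected in every library of the line. Of all SKNAS calls, 28.8% were higher in the main fit, 53.6% after rescaling, 52.2% with the covariate and 44.7% in the high-median libraries. The median change of all genes went from -0.29 to 0.03 with rescaling. After rescaling, the SKNAS changes were -1.93 for ARNTL, -0.90 for ARNTL2, -0.85 for NPAS2 and 0.038 for CLOCK. The interaction had 26.2% of its calls higher, against 55.4% after rescaling. The line differences had 42.4% in MYC-OFF and 33.4% in MYC-ON, against 53.6% and 51.5% in the high-median libraries. Rescaling, which was done within each line, left the line differences at 34.5% and 38.6%, with median changes of -0.31 and -0.30, so it did not even out the lines.

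**Figure D4:**
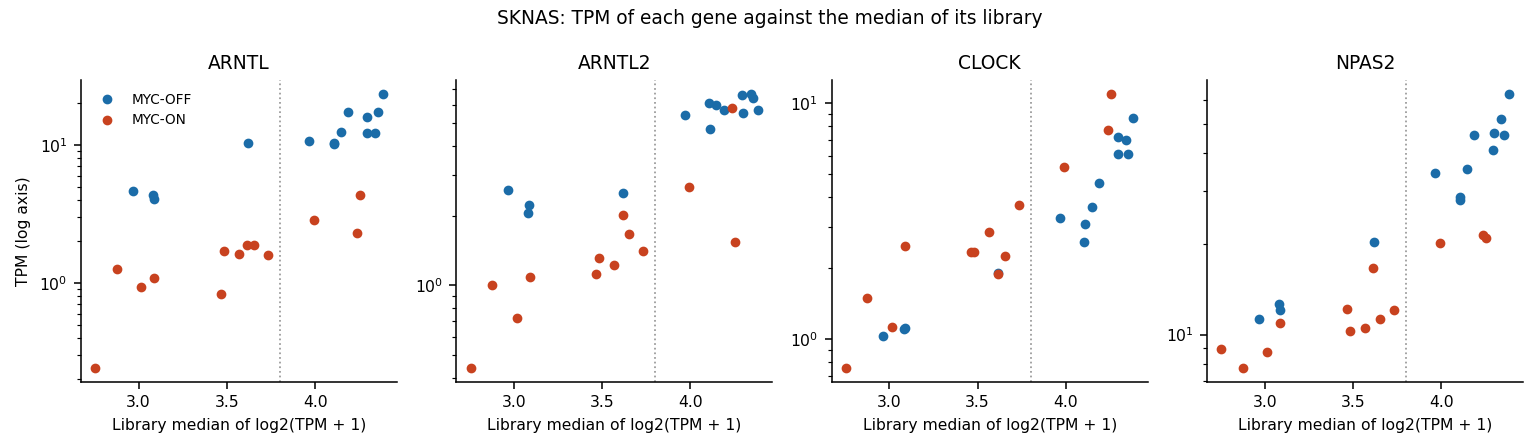
TPM (log axis) of each member against the median log2(TPM + 1) of its library in SKNAS, with MYC-OFF in blue and MYC-ON in red; each point is 1 library and the dotted line marks a median of 3.8. CLOCK and NPAS2 rise with the library median in both conditions, and ARNTL stays lower in MYC-ON on both sides of the line.

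In SHEP MYC-OFF, ARNTL was the member with the clearest course over the day. At CT40 its level was 19.5 and 18.8 TPM in series 1 and 2, at CT56 it was 11.8 and 10.2 TPM, and at CT68 16.5 and 15.2 TPM, so both series fell and rose again. A 24 h cosine fitted to log2(TPM + 1), after allowing each series its own mean and trend, had an amplitude of 0.26 (SE 0.049) and a peak at 19.3 h of the 24 h cycle (SE 0.67 h), counted from dexamethasone. The series alone gave amplitudes of 0.23 and 0.30 with peaks at 19.2 and 19.4 h. The unadjusted limma F test over all CTs gave 6.43e-05 and the adjusted p was 0.0700, above the threshold of 0.05, which only 0.0306% of 19584 genes passed. Restricting the test to genes with a mean of at least 1 TPM gave an adjusted p of 0.0481 (limma).

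With the main gene filter no member, ARNTL included, was called rhythmic in any group by this test. In SHEP MYC-ON, ARNTL had an amplitude of 0.14 (SE 0.063), a peak at 17.7 h and a limma adjusted p of 0.627, where 0.00993% of genes were called. Its highest level came at CT64 in both series (3.58 and 5.20 TPM) and its lowest at CT32 (1.5 and 1.62 TPM). For SHEP MYC-OFF and MYC-ON, ARNTL2 had amplitudes of 0.03 and 0.07, CLOCK 0.06 and 0.10 and NPAS2 0.05 and 0.06, with limma adjusted p of 0.804 or more. In SKNAS the amplitude of ARNTL was 0.33 (SE 0.23) in MYC-OFF and 0.20 (SE 0.23) in MYC-ON, and the other members had amplitudes of 0.11 to 0.38 with SEs of 0.20 to 0.32. The SKNAS SEs were several times those of SHEP, so an amplitude the size of that of ARNTL in SHEP MYC-OFF was not detectable there, and 0% of genes were called in MYC-OFF and 0% in MYC-ON at the threshold of 0.1 (limma; 214 and 171 genes had an unadjusted p under 0.05).

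The difference in the ARNTL rhythm between conditions was tested directly. In SHEP it had a size of 0.15 (SE 0.081, limma adjusted p = 0.964) and in SKNAS 0.48 (SE 0.34, limma adjusted p = 0.983), and 0% of genes were called in SHEP and 0% in SKNAS (904 and 191 genes had an unadjusted p under 0.05). A rhythm nearer the threshold in MYC-OFF than in MYC-ON is thus not a tested loss. A damped oscillator with a searched period called ARNTL in SHEP MYC-OFF alone, at a period of 26.5 h (adjusted p = 0.000388, Kendall's tau 0.654), and no other member in any group. Its p-values are too small because the period is chosen on the same data, and it called 13.9% and 11.9% of genes in SHEP MYC-OFF and MYC-ON and 4.53% and 3.48% in SKNAS.

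**Figure D5:**
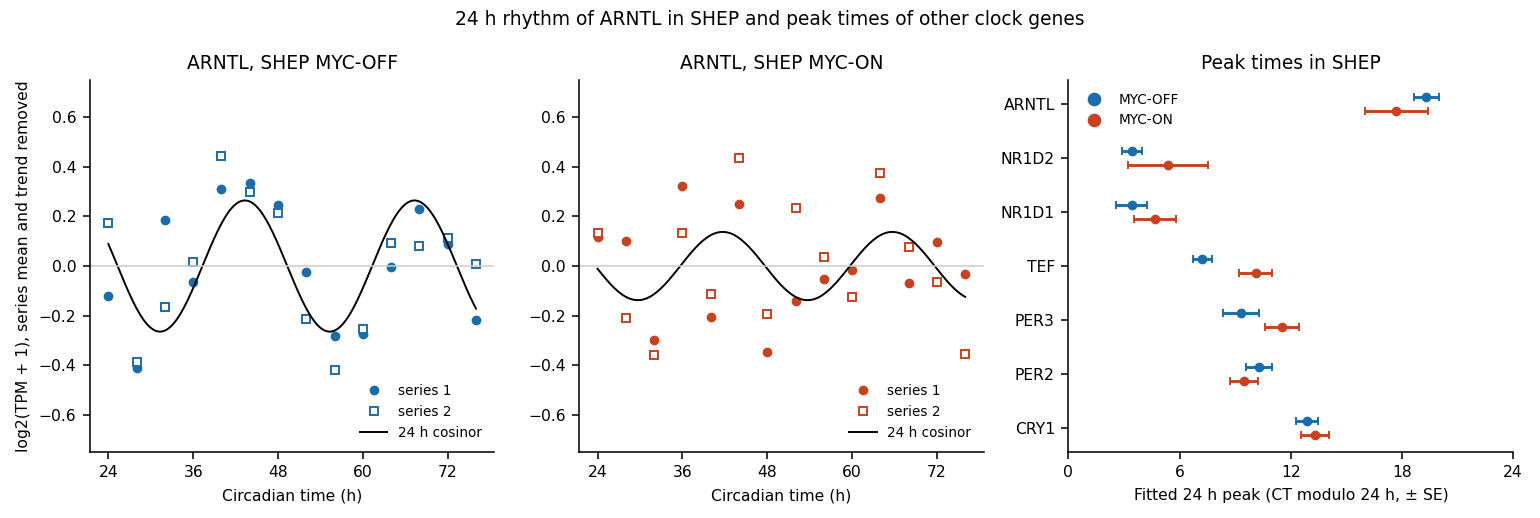
Log2(TPM + 1) of ARNTL in SHEP against circadian time, with the mean and trend of each series removed, in MYC-OFF (left) and MYC-ON (middle), where points are libraries and the line is the fitted 24 h cosine; the right panel gives fitted peak times of ARNTL and 6 feedback genes in hours of the 24 h cycle, ± SE. The MYC-OFF curve has an amplitude of 0.26 and the MYC-ON curve 0.14, and ARNTL has the highest peak hour of the genes drawn, counted from dexamethasone.

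The clock genes that act on or below the positive arm were counted from fixed lists. Over all genes tested, 4740 of 14362 were called higher and 5580 lower in SHEP. In SKNAS 1925 of 13886 were called higher and 4751 lower. Of the 5 PER and CRY repressors, which inhibit the ARNTL-CLOCK pair, 5 rose in SHEP and 3 rose in SKNAS, with none lower, beside median changes of 0.97 and 0.88 for the list and -0.04 and -0.29 for all genes. PER3 means were 1.69 TPM (MYC-OFF) and 10.5 TPM (MYC-ON) in SHEP, and 0.561 and 3.09 TPM in SKNAS. CRY1 and CRY2, the 2 not called in SKNAS, were both called higher there after rescaling and with the covariate. In the high-median libraries 3 of the 5 were called, CRY1 among them, and CRY2 (0.58, limma adjusted p = 0.129) and PER1 (0.92, limma adjusted p = 0.174) were not. Of the REV-ERB and ROR receptors, which act on the ARNTL promoter, 3 of 3 tested rose in SHEP, and in SKNAS 3 rose, 1 fell and 1 was not called. NR1D1, which encodes the repressor REV-ERB alpha, rose by 2.63 on the log2 scale in SHEP (means of 4.93 and 35.1 TPM) and by 2.51 in SKNAS (7.26 and 46.6 TPM), the direction opposite to that of ARNTL. RORA, an activator, was called at 0.29 in SHEP and at -0.40 in SKNAS. In SKNAS it stayed called with the library median as a covariate (-0.42, limma adjusted p = 0.00402). It was not called there after rescaling (-0.08, limma adjusted p = 0.712) or in the high-median libraries (-0.21, limma adjusted p = 0.330).

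Of the output factors, 3 rose and 2 fell of 5 tested in SHEP, and 4 rose and 1 fell of 5 in SKNAS. Over all genes, 71.9% were called in SHEP and 48.1% in SKNAS. NFIL3, a repressor of D-box genes, fell in both lines, from 16.3 to 8.62 TPM and from 6.62 to 2.61 TPM. BHLHE40, an E-box repressor, fell in SHEP from 107 to 75.8 TPM and rose in SKNAS from 5.13 to 11.8 TPM. Of the other bHLH-PAS genes, relatives of the members with partners and targets of their own, 8 of 11 tested fell in SHEP and 9 of 10 in SKNAS, with median changes of -0.45 and -1.01, beside 38.9% and 34.2% of all genes called lower and all-gene medians of -0.04 and -0.29. ARNT, the shared partner of several of these proteins, had means of 18.4 and 13.03 TPM in SHEP and of 17.8 and 7.79 TPM in SKNAS. HIF1A, its oxygen-regulated partner, had 184 and 138 TPM in SHEP and 97.2 and 34.6 TPM in SKNAS, and both genes were called lower in both lines. In SKNAS the ARNT call was kept after rescaling (-0.72, limma adjusted p = 0.0168). The ARNT call was lost with the covariate (-0.22, limma adjusted p = 0.186) and in the high-median libraries (-0.35, limma adjusted p = 0.311). The HIF1A call was kept under each of these settings. NPAS1 was the 1 that rose in each line. After rescaling 9 of 10 bHLH-PAS genes fell in SKNAS, with the library median as a covariate 6 of 10, and in the high-median libraries 5 of 10. Cofactors of the positive arm gave 1 higher, 4 lower and 4 not called of 9 in SHEP, where 38.9% of all genes were called lower. In SKNAS they gave 1 higher, 1 lower and 6 not called of 8, where 34.2% of all genes were called lower. Their SKNAS median of -0.67 was -0.36 after rescaling, 0.08 with the covariate and 0.02 in the high-median libraries.

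In SHEP MYC-OFF the phases of the feedback genes can be set beside that of ARNTL. NR1D2 peaked at 3.43 h, TEF at 7.22 h and CRY1 at 12.9 h, all called (limma adjusted p = 0.00831 each), and NR1D1 at 3.41 h and PER2 at 10.3 h were not called (limma adjusted p = 0.126 and 0.0655). Counted from dexamethasone, ARNTL had the highest peak hour of these, 19.3 h, and such an order depends on where the cycle is started. In SHEP MYC-ON none of the genes of these lists was called, where 0.00993% of all genes were. All 5 PER and CRY genes had an unadjusted limma p under 0.05 in MYC-OFF and again in MYC-ON. The REV-ERB and ROR receptors with such a p numbered 2 and 1, and the output factors 2 and 3. Among all genes the shares were 9.61% and 9.4%. No gene was called in the SHEP test of a rhythm difference, so these calls do not show a loss of rhythm.

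Genes whose levels ran most like each member over all 83 libraries are given as a description, since line, condition and library median are shared by all points. For ARNTL these were PLAT (Pearson r 0.938), ITFG1 (0.935) and IFIT2 (0.932), for ARNTL2 FRMD6 (0.987), AXL (0.985) and SEL1L3 (0.984), for CLOCK MAP3K20 (0.956), and for NPAS2 FAM222A (0.984), SCG2 (0.984) and CORO2A (0.983), among 14870 genes. Among the members, ARNTL2 and CLOCK had r of 0.852 and ARNTL2 and NPAS2 -0.816, while ARNTL had 0.385 with ARNTL2, 0.369 with CLOCK and 0.0738 with NPAS2. Within SHEP, after the mean and trend of each series were removed (56 libraries), ARNTL ran most like RHOT1 (0.585) and most opposite to TEF (-0.638), and its r was 0.230 with CLOCK and 0.0912 with ARNTL2.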

How the data were processed

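Polyadenylated RNA of 83 libraries was analysed as deposited. Per the study's methods and notes, the authors quantified reads with Salmon 1.3.0 against Gencode 35 (GRCh38) and summed transcripts to genes, and the deposited values are TPM for 60237 genes. Columns summed to 1000000, so depth and counting error cannot be given, and 961 entries repeat a symbol of another entry. Groups came from the sample titles. Here log2(TPM + 1) was fitted with limma 3.58.1 (R 4.3.3) per line, with CT as a factor, over genes with a mean of at least 1 TPM (interaction and line differences: in either line). Rhythm was a 24 h cosine with an F test, over genes above 0 in at least 70% of libraries, in place of the oscillator search of the study. The count model in the study's methods needs counts and was not used. Ratios used sign-flip permutation tests in scipy 1.17.1, with 100000 resamples in SHEP. Scripts were tested on simulated data. Alternatives were another pseudocount, no minimum, rescaled libraries, the library median as a covariate, a replicate block and leaving out a series. The high-median subset for line differences and the ratios without a pseudocount were chosen after seeing the data. Members, gene lists and the named genes (all members, and list genes by role) were chosen with earlier results of these data known. The highest correlation between 2 libraries was 0.995, and no library was counted as a duplicate. Values of some listed genes are not reported here. The osteosarcoma line and the repeat of SKNAS that the study also used were not analysed here.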

Additional observations from a re-analysis of the deposited data

Results flagged for a closer look

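The change from MYC-OFF to MYC-ON differed between SKNAS and SHEP, by the interaction test over all 83 libraries, for 11 of the members and listed clock genes reported here (limma adjusted p at most 0.05). The differences below are the SKNAS log2 change minus the SHEP log2 change. Among the members these were ARNTL2, with -0.90, and NPAS2, with -0.62. Among the repressors, PER3 had -0.87, CRY1 -0.52 and CRY2 -0.55, and in this main fit all 3 had smaller log2(TPM + 1) changes in SKNAS than in SHEP. CRY1 and CRY2 were not called after rescaling, with the library median as a covariate or in the high-median libraries. PER3 stayed called in the first 2 of these settings but was at -0.04 in the high-median libraries. RORA, an activator of ARNTL, had -0.69. The E-box repressors BHLHE40 and BHLHE41 had 1.51 and 1.099. Of the other bHLH-PAS genes ARNT had -0.58, HIF1A -1.11 and NPAS3 -1.41. NPAS3 was under the minimum mean of 1 TPM in SHEP and so outside the SHEP test. The log2(TPM + 1) scale understates changes at such levels, and the SKNAS change of NPAS3 was -1.61. After rescaling 7 of the 11 were called, with the library median as a covariate 7, and in the high-median libraries 4, which were ARNTL2, BHLHE40, BHLHE41 and NPAS3. The interaction called 51.6% of all genes, and 1 SKNAS series was analysed, so a second experiment did not enter these differences.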

How the results depend on the processing

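Among the alternative values for the members' changes and line differences, 106 kept their direction and their side of the threshold, 14 turned sign and 7 lost the call. CLOCK turned to 0.12 in SHEP with the library median as a covariate, and in SKNAS to 0.038 after rescaling, 0.38 with the covariate and 0.53 in the high-median libraries. Its interaction went to 0.10, 0.40 and 0.63 under the same 3 settings and was called in the last 2. The ARNTL interaction turned to 0.061 after rescaling, 0.27 with the covariate and 0.17 in the high-median libraries, and ranged from -0.32 to 0.023 when a SHEP series was left out. The NPAS2 interaction turned to 0.33 with a pseudocount of 0.1, was not called at -0.28, -0.18 and -0.38 under the same 3 settings, and ranged from -0.73 to -0.51 with a series left out, where the call was lost without series 1 (limma adjusted p = 0.106). The ARNTL line difference was -0.10 in MYC-OFF in the high-median libraries, from -0.45 to -0.35 with a series left out (not called without series 1, limma adjusted p = 0.0767), and 0.044 (covariate) and 0.19 (high-median) in MYC-ON; that of CLOCK in MYC-ON was -0.16 in the high-median libraries. The cause was not tested. Calls in the interaction went from 8227 to between 5050 and 5221 with a series left out, as fewer libraries enter. Genes called rhythmic in SHEP MYC-OFF went from 6 to 12 with a pseudocount of 0.1, 18 with the mean TPM minimum, 2722 with the oscillator and from 0 to 0 with a series left out; in SHEP MYC-ON 2 became 2405 and 0, and in SKNAS the oscillator called 851 and 624. The adjusted p of ARNTL rhythm in SHEP MYC-OFF was 0.0481 with the mean TPM minimum (limma) and 0.000388 with the oscillator. As series means, the SHEP ratio changes were -1.79 and 0.48, each at an exact permutation p of 0.333.

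Series numbers in SHEP pair the conditions only by number, with 2 pairs: the correlation of the series difference between conditions was 0.489 averaged over CTs, and 11 of 14 CTs were above 0.1. A fit with the replicate block called 10378 genes in SHEP, against 10320 without it, and 8422 against 8227 in the interaction, and it changed no call of a member. Depth is unknown, so values near 0 TPM, such as NPAS2 in SHEP, carry no stated counting error. Only 1 run of the SKNAS experiment was analysed here.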

Other observations

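ARNTL in SHEP MYC-ON, although low, was higher late in the series than early. Over CT24 to CT44 it was at 2.40 ± 0.754 TPM (SD, 12 libraries, range 1.5 to 4.18) and over CT56 to CT76 at 3.42 ± 0.771 TPM (12 libraries, range 2.47 to 5.20). The linear slope was 0.22 and 0.38 log2 units per 24 h in series 1 and 2, against -0.13 and 0.07 in MYC-OFF, where the means of the same windows were 15.4 ± 3.24 and 13.6 ± 2.08 TPM. ARNTL2 in SHEP MYC-OFF went the other way, from 35.4 ± 2.97 to 30.04 ± 2.77 TPM. These windows were chosen after the values were seen, and the slopes were not tested.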
